A study of Mus musculus with 6 samples.

Results

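Chemokines that draw T cells into tissue are described here through 6 genes, Cxcl9, Cxcl10, Cxcl11, Ccl5, Cxcl16 and Cx3cl1, chosen by symbol from the 24493 genes of the deposited table. All 6 had a row in the table and all 6 passed the filter on low values. RNA had been sequenced in bulk from pancreatic tumor cells of the clone 6419c5, sorted out of tumors grown under the skin of C57BL/6 mice. The 4 control libraries came from tumors without the treatment, and the labels do not say what the control animals received. The 2 GAFCP libraries came from tumors given gemcitabine (a nucleoside analog), abraxane (albumin-bound paclitaxel), an agonist of the receptor CD40, and antibodies that block PD-1 and CTLA-4, inhibitory receptors of T cells. All libraries thus share 1 tumor clone and 1 host strain, and the 5 agents were given together, so their separate shares in any difference cannot be told apart. Age of the mice, length of treatment and the sorting marker are not given in the sources. Separate tumors or animals are not named for the libraries, and every p-value below therefore rests on library-to-library spread, part of which may be technical.

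Chemokines are small secreted proteins that guide leukocytes along a gradient by binding receptors on their surface. CXCL9, CXCL10 and CXCL11 are the ligands of CXCR3, a receptor of activated T cells and natural killer cells, and their genes are classical targets of interferon. CCL5 attracts T cells and myeloid cells. CXCL16 and CX3CL1 differ from the others in being made as membrane proteins on a mucin-like stalk; the proteases ADAM10 and ADAM17 can release them, and their receptors are CXCR6 and CX3CR1. The C57BL/6 strain is known to carry a frameshift in Cxcl11 and to make no working CXCL11 protein, and the RefSeq annotation of this strain's genome lists Cxcl11 as a transcribed pseudogene. The Cxcl11 values below are therefore RNA values only.

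The genes of the CXCR3 ligands lie side by side on mouse chromosome 5, all on the minus strand (GRCm38, also called mm10; spans of whole genes from RefSeq). Cxcl9 spans 92321331 to 92328079, Cxcl10 spans 92346638 to 92348889 and Cxcl11 spans 92359544 to 92363296. Ccl5 (83525778 to 83530518) and Cxcl16 (70454389 to 70459984) are on chromosome 11, and Cx3cl1 (94772180 to 94782427) is on chromosome 8. Cxcl10 and Cxcl11 lie wholly inside the span of Art3, a gene of the opposite strand, and Cxcl16 shares 552 bases with Zmynd15, also on the opposite strand. These overlaps are of whole gene spans, and whether any exons overlap was not examined. Whether counting used strand is not stated, so reads from any shared exon stretch could not be assigned to a strand.

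RefSeq promoter sequences (GRCm38.p6) were found for 3 of the 6 genes, Cxcl9, Cxcl10 and Cx3cl1, and the 250 bases before each of these starts are shown. None was found for Cxcl11, Ccl5 or Cxcl16, so the matches cannot be set against the size of the rise. Capitals mark every match, on either strand, to GAAANNGAAA (a pair of interferon regulatory factor half-sites), TTCNNNGAA (a gamma-activated site), GGGNNTTCC or GGGNNNTTCC (a shorter and a longer spacing of an NF-kappaB type site, which can overlap each other). The windows are chr5:92328080-92328329 for Cxcl9 and chr5:92348890-92349139 for Cxcl10, both on the minus strand, and chr8:94771930-94772179 for Cx3cl1 on the plus strand, each written 5′ to 3′.
Cxcl9: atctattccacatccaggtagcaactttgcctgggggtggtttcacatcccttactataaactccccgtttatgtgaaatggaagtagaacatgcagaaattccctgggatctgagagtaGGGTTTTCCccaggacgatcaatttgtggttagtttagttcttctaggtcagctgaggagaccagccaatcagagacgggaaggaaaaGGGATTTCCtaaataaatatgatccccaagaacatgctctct
Cxcl10: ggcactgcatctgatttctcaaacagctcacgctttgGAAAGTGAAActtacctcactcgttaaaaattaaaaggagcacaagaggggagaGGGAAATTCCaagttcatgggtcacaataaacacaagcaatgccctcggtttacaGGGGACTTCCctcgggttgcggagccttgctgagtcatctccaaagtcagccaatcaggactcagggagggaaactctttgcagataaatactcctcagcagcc
Cx3cl1: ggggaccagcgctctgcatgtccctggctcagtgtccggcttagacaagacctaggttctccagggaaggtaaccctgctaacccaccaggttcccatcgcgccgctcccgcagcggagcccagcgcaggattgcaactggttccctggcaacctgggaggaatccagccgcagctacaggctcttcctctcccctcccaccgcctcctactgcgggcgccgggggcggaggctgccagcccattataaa
The Cxcl9 window held 2 matches to the shorter NF-kappaB type pattern, GGGTTTTCC and GGGATTTCC, the latter ending 34 bases before the start. The Cxcl10 window held the interferon regulatory factor pair GAAAGTGAAA, from 213 to 204 bases before the start, and 2 NF-kappaB type stretches, GGGAAATTCC and GGGGACTTCC, of which the latter also holds the shorter match GGGACTTCC. No pattern matched in the Cx3cl1 window, and TTCNNNGAA matched in none of the 3. Among 32851 RefSeq promoter windows of the same length, 2.98% held GAAANNGAAA, 7.02% held TTCNNNGAA, 4.98% held GGGNNTTCC and 4.65% held GGGNNNTTCC. These matches describe letters in the window and not bound sites. A site that departs from these fixed patterns is not marked, so a window without a match may still hold one.

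All 6 chemokine genes were higher with GAFCP than in controls, by limma on log2(TPM + 1) with p-values adjusted over all 13720 genes tested. TPM is transcript abundance per length, set to a common total for every library. Cxcl10, Cxcl9, Ccl5 and Cxcl11 formed the upper part of the range, with mean TPM between 8.22 and 9.71 times the control mean, while Cxcl16 reached 1.85 times and Cx3cl1 1.35 times. Of all genes tested 47.5% passed the same test, 19.0% as higher and 28.5% as lower, so passing the test was common in this comparison. That split is 2606 genes higher and 3909 lower, and with median-of-ratios scaling of the TPM values it was 3449 and 3425. In 24.7% of tested genes both GAFCP libraries lay above every control library, and in 61.6% the groups did not overlap in either direction. The GAFCP libraries lay above every control in each of the 6. A rise of at least 2 on the log2 scale that also passed the test, which Cxcl9, Cxcl10, Cxcl11 and Ccl5 showed, was seen in 1.20% of tested genes. The median log2 change was 2.88 over the 6 and -0.07 over all tested genes. Because these are bulk libraries, a different proportion of some cell type and a different amount of RNA per cell cannot be told apart in any of these values.

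**Figure D1:**
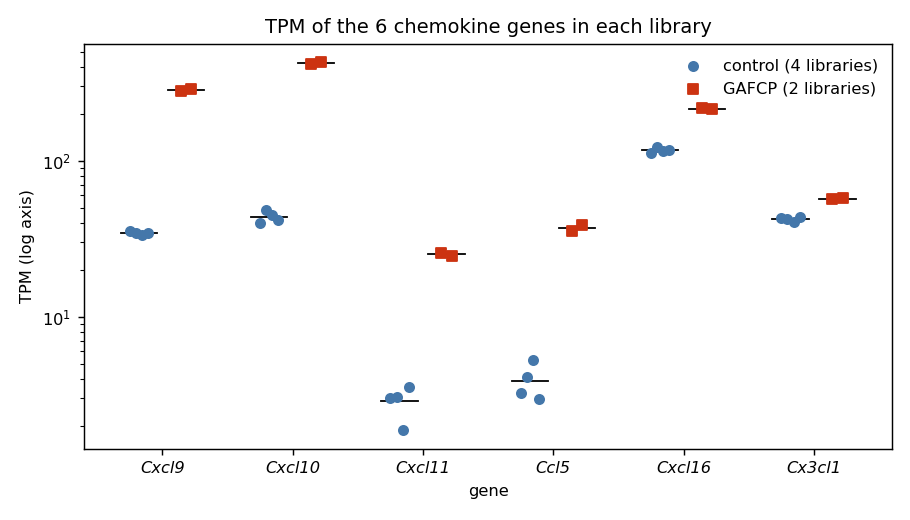
TPM (log axis) of the 6 chemokine genes in each library, with the control libraries as blue circles, the GAFCP libraries as red squares and group means as black lines. In each gene both GAFCP libraries sit above all 4 control libraries, with the widest gaps for Cxcl9, Cxcl10, Cxcl11 and Ccl5 and the narrowest for Cx3cl1.

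The CXCR3 ligands were led by Cxcl10. Its TPM was 40.3, 48.2, 44.8 and 41.5 in control libraries 1 to 4 and 421 and 428 in GAFCP libraries 1 and 2. The groups lay far apart, and the spread within each was small beside the gap. The log2 change of Cxcl10 was 3.25 ± 0.07 (SE; limma adjusted p = 3.9e-08), the 26th largest rise of the 13720 genes tested. Cxcl9 was at 35.5, 34.7, 33.5 and 34.5 TPM in the controls and at 280.1 and 288 TPM with GAFCP. Its controls were the tightest of the 6 for their level (34.6 ± 0.802 TPM, SD, n = 4). The log2 change of Cxcl9 was 3.002 ± 0.040 (SE; limma adjusted p = 8.5e-09). Cxcl11 was far less abundant, at 2.997, 3.08, 1.87 and 3.56 TPM in the controls and 25.7 and 24.6 TPM with GAFCP. Control library 3 was the lowest of the controls, and both GAFCP libraries were several times above the highest. The log2 change of Cxcl11 was 2.77 ± 0.17 (SE; limma adjusted p = 8.8e-06), and a pseudocount of 1 TPM lowers the change of such a low gene. With a pseudocount of 0.1 TPM the change was 3.12, and with 5 TPM it was 1.94.

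Ccl5, which T cells also make themselves, started almost as low as Cxcl11. Its TPM was 3.25, 4.10, 5.26 and 2.96 in control libraries 1 to 4 and 35.5 and 38.7 with GAFCP. The control libraries differed among themselves by a wider factor than those of Cxcl9, Cxcl10, Cxcl16 or Cx3cl1, yet none came near the GAFCP libraries. The log2 change of Ccl5 was 2.98 ± 0.17 (SE; limma adjusted p = 6.4e-06).

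The membrane-anchored chemokines rose less. Cxcl16, the ligand of CXCR6, was the most abundant of the 6 in controls, at 112, 122, 115 and 117 TPM, and was at 217 and 216 TPM with GAFCP. Its log2 change was 0.89 ± 0.04 (SE; limma adjusted p = 1.9e-06), which ranked 811th among tested genes. Cx3cl1, the ligand of CX3CR1, was at 43.1, 42.5, 40.4 and 43.5 TPM in controls and at 56.6 and 58.2 TPM with GAFCP. The groups did not overlap, but the gap was narrow. The log2 change of Cx3cl1 was 0.43 ± 0.05 (SE; limma adjusted p = 2.0e-04), which ranked 1734th.

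The sizes of the changes fell into an upper and a lower set. The 95% interval of the log2 change was 3.09 to 3.42 for Cxcl10, 2.91 to 3.10 for Cxcl9, 2.58 to 3.39 for Ccl5 and 2.37 to 3.17 for Cxcl11. It was 0.79 to 0.98 for Cxcl16 and 0.32 to 0.54 for Cx3cl1. Ratios between the genes were also compared within each library, for all 15 pairs, with an exact permutation test (two-sided) of the 15 arrangements of the libraries. The smallest p this design allows is 0.0667, so none could pass 0.05. Each of Cxcl9, Cxcl10, Cxcl11 and Ccl5 gained on Cxcl16 by between 2.15 and 2.40 on the log2 scale and on Cx3cl1 by between 2.60 and 2.85, with no overlap between groups and the smallest p (exact p = 0.0667, adjusted p = 0.111 over the 15 pairs). Cxcl16 gained on Cx3cl1 by 0.45 in the same way (exact p = 0.0667, adjusted p = 0.111). Among Cxcl9, Cxcl10, Cxcl11 and Ccl5 the changes in ratio were between -0.25 and 0.12, and their groups overlapped in 5 of 6 pairs. The exception was Cxcl9 over Cxcl10, which differed by -0.24 (exact p = 0.133, adjusted p = 0.2).

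The order of the levels changed with the larger rises. In controls Cxcl16 was highest (117 ± 4.18 TPM, SD, n = 4), followed by Cxcl10 (43.7 ± 3.56), Cx3cl1 (42.4 ± 1.38), Cxcl9 (34.6 ± 0.802), Ccl5 (3.89 ± 1.03) and Cxcl11 (2.88 ± 0.716). The libraries of Cxcl10 and Cx3cl1 overlapped in level, as did those of Ccl5 and Cxcl11, so these neighbours in the order did not differ beyond their spread. With GAFCP the order was Cxcl10 (424 ± 5.35 TPM, SD, n = 2), Cxcl9 (284 ± 5.44), Cxcl16 (216 ± 0.901), Cx3cl1 (57.4 ± 1.14), Ccl5 (37.1 ± 2.26) and Cxcl11 (25.1 ± 0.798), and no neighbours overlapped. Summed over the 6 genes, TPM went from 244 ± 7.50 to 1044 ± 12.5. Cxcl9, Cxcl10 and Cxcl11 made up 33.2% ± 0.437 of that sum in controls and 70.2% ± 0.117 with GAFCP. Cxcl16 and Cx3cl1 together went from 65.2% ± 0.723 to 26.2% ± 0.291. Shares of a sum move against each other, so the lower share of Cxcl16 and Cx3cl1 stands beside higher TPM of each.

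**Figure D2:**
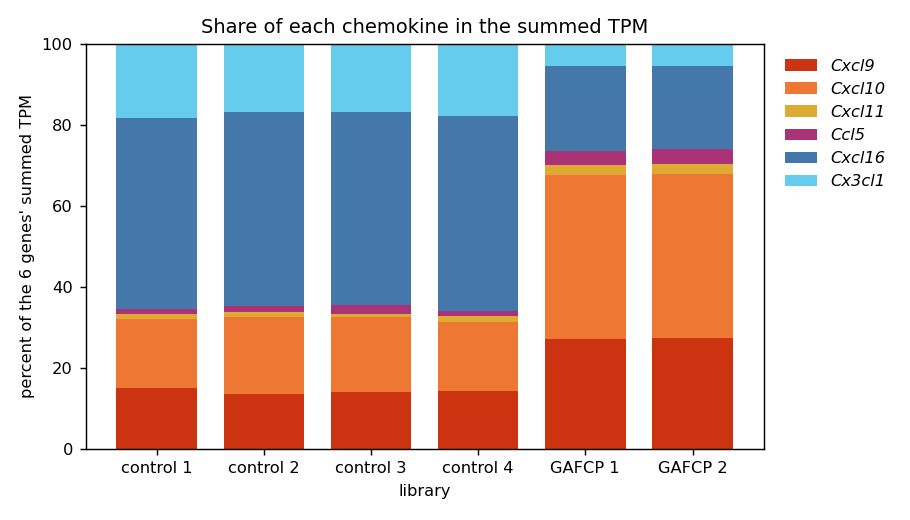
Share (percent) of each of the 6 chemokine genes in their summed TPM, as stacked bars with 1 bar per library. Cxcl16 holds 47.2% to 48.2% of the sum in the control libraries and Cxcl10 holds 40.6% and 40.7% in the GAFCP libraries, where it is the widest band.

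The wider chemokine family rose in the same libraries. Of 32 other chemokine genes 25 were tested, of which 18 were higher and 4 lower with GAFCP (19.0% and 28.5% of all tested genes). The filter asked for at least 1 TPM in at least 2 libraries, and 2 of the 25 reached it only through the GAFCP libraries. Of the other 23 chemokine genes, 16 were higher. The largest rises among them were those of Cxcl3, a neutrophil chemokine (31.4 to 243 TPM; log2 change 2.92), and Ccl4, a chemokine of macrophages and T cells (3.04 to 27.4 TPM; log2 change 2.80). Ccl21a, whose protein guides naive T cells and dendritic cells into lymph nodes, was between 6.46 and 6.58 TPM in controls and listed at 0 in GAFCP libraries 1 and 2. Ccl21a has near-identical copies in the mouse genome, and how reads were divided among them was not examined. Ccl17, a ligand of CCR4 on T cells and a neighbour of Cx3cl1 on chromosome 8, fell from 11.1 ± 2.54 TPM to 4.92 and 7.54 TPM (limma adjusted p = 0.020). The call for Ccl17 was lost without GAFCP library 1 (adjusted p = 0.164) and with a robust variance model (adjusted p = 0.0613).

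**Figure D3:**
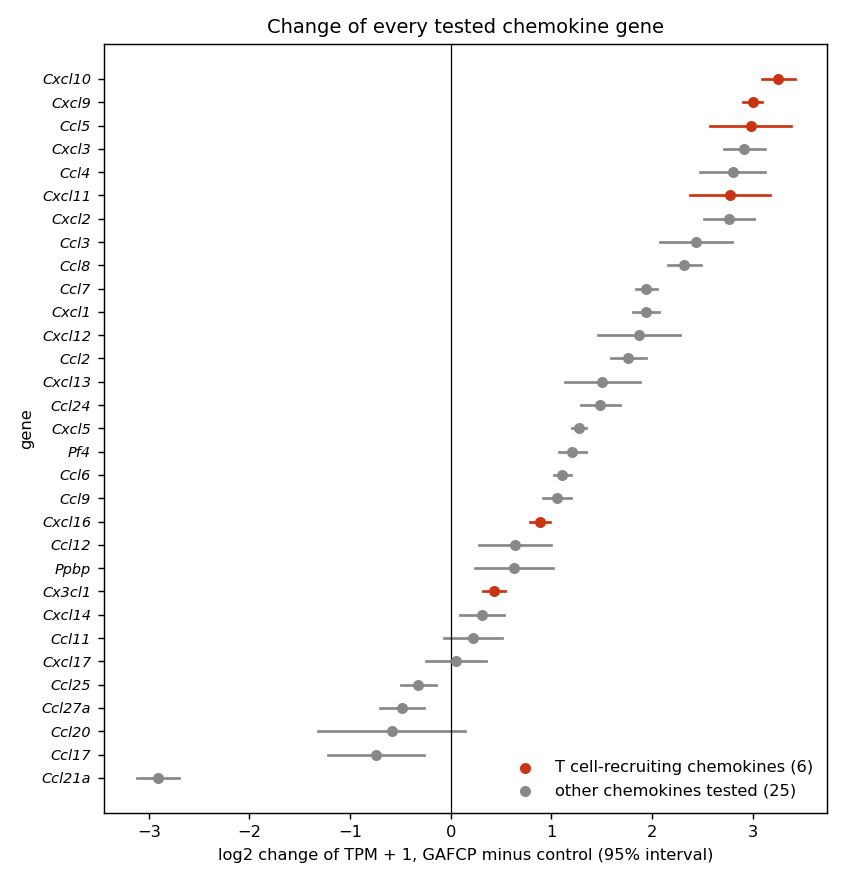
Log2 change of TPM + 1 (GAFCP minus control) with its 95% interval from limma, for the 6 T cell-recruiting chemokines in red and the 25 other tested chemokine genes in grey. Cxcl10, Cxcl9 and Ccl5 stand highest, while Cxcl16 at 0.89 and Cx3cl1 at 0.43 lie below most of the family's increases.

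Rises at the chromosome 5 cluster were read beside the genes that flank it. Art3, whose span holds Cxcl10 and Cxcl11, was at 0.443 TPM or less in every library and was not tested. Sdad1, a nucleolar protein gene next to Cxcl9, was at 17.2 ± 0.927 TPM in controls and at 20.8 and 20.4 TPM with GAFCP (log2 change 0.25; limma adjusted p = 0.013), a call lost without GAFCP library 1 (adjusted p = 0.0904) or GAFCP library 2 (adjusted p = 0.0681), with control libraries 1 and 2 alone (adjusted p = 0.0522) and with the replicate block (adjusted p = 0.0748). Naaa, Nup54 and Scarb2 did not pass the test, with log2 changes of 0.09, 0.14 and -0.11. With median-of-ratios scaling Naaa (0.15) and Nup54 (0.21) passed, and Scarb2 passed without control library 3 (-0.17) and with the replicate block (adjusted p = 0.0432). Other alternatives also brought Naaa, Nup54 and Scarb2 past the threshold, in the same direction. Beside Ccl5 on chromosome 11, the chemokine gene Ccl9 rose from 30.2 ± 1.71 to 63.8 TPM (log2 change 1.06; limma adjusted p = 5.7e-06), Heatr9 was at 0.317 TPM or less, and the RNA-binding protein gene Taf15 did not pass (0.09 on the log2 scale, and 0.16 with median-of-ratios scaling, where it passed). Beside Cxcl16, Zmynd15, which overlaps it, went from 18.4 ± 2.88 to 23.2 TPM and did not pass (limma adjusted p = 0.072). Zmynd15 passed under 8 of the 20 alternatives, among them leaving out control library 1 (adjusted p = 0.0483) or 2 (adjusted p = 0.0384) and median-of-ratios scaling (adjusted p = 0.0199). Beside Cx3cl1 the membrane proteolipid gene Pllp fell from 37.4 ± 0.754 to 15.5 TPM (log2 change -1.22; limma adjusted p = 1.5e-06).

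**Figure D4:**
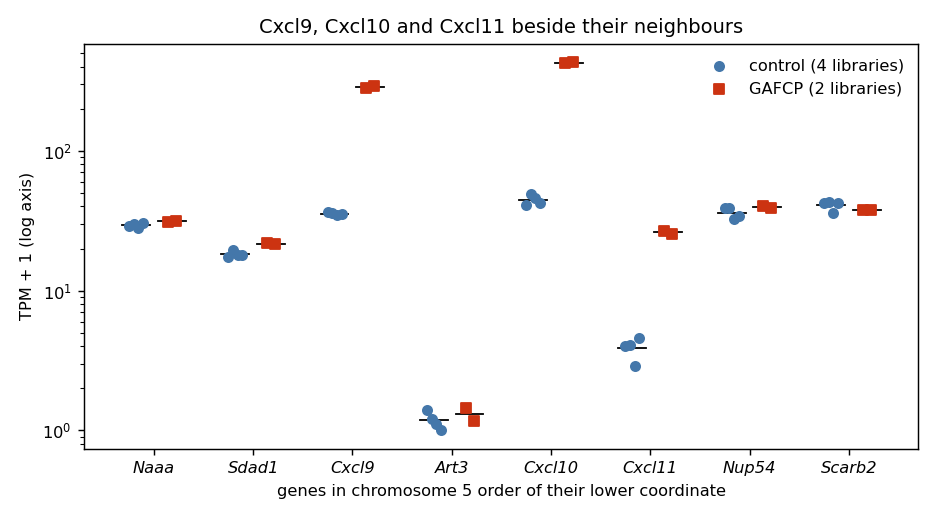
TPM + 1 (log axis) in each library for Cxcl9, Cxcl10 and Cxcl11 and their neighbours in chromosome 5 order, with controls as blue circles, GAFCP libraries as red squares and group means as black lines. The 3 chemokine genes show wide gaps between the groups, while Art3 stays near the floor and Naaa, Nup54 and Scarb2 have log2 changes of 0.09, 0.14 and -0.11.

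Receptors of the 6 chemokines were at low levels in these sorted cells. Of 9 receptor and scavenger genes 6 were tested, and 5 were higher and none lower (19.0% and 28.5% of all tested genes). Of these, 2 (Cxcr3 and Cxcr6) reached the filter only through the GAFCP libraries, where they were high, so their p-values are not given. Of the other 4, 3 were higher. Cxcr3, the receptor of CXCL9, CXCL10 and CXCL11, averaged 0.599 TPM in controls and was at 2.19 and 2.65 TPM with GAFCP (log2 change 1.10). Cxcr6 averaged 0.343 TPM and was then at 2.70 and 1.82 TPM (log2 change 1.27). Cx3cr1 was at 1.17 ± 0.165 TPM in controls and at 1.07 and 1.20 TPM with GAFCP, within the control range, and did not pass (limma adjusted p = 0.93). Its 95% interval was -0.33 to 0.29 on the log2 scale. Ackr3, a scavenger of CXCL11 and CXCL12, was the most abundant of the list and went from 39.1 ± 0.983 TPM to 55.9 and 58.7 TPM (log2 change 0.54; limma adjusted p = 5.2e-05).

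Cytokines that induce these chemokines were compared in the same way. Of 10 such genes 7 were tested, and 6 were higher and 1 lower (19.0% and 28.5% of all tested genes). Ifng and Tnf, with fewer than 2 control libraries at 1 TPM, reached the filter only through the GAFCP libraries, and of the other 5 genes 4 were higher and 1 lower. Ifng, which encodes interferon gamma, averaged 0.124 TPM in controls and was at 1.75 and 1.32 TPM with GAFCP (log2 change 1.17). Tnf went from 1.03 ± 0.450 TPM to 11.8 and 14.3 TPM (log2 change 2.81). Il1b rose from 6.07 ± 0.452 TPM to 37.9 and 38.0 TPM. Il18 fell from 8.86 ± 0.409 TPM to 4.05 and 5.08 TPM. Ifnb1, which encodes interferon beta, had a control mean of 0.0299 TPM and was listed at 0 with GAFCP.

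Of 20 genes that carry the inducing signals, all were tested, and 11 were higher and 2 lower (19.0% and 28.5% of all tested genes). Their median log2 change was 0.24. Irf1, an interferon-induced transcription factor, rose from 76.1 ± 3.71 TPM to 295 TPM in each GAFCP library (log2 change 1.94). Irf7 had the largest rise of the list (log2 change 2.40). The interferon gamma receptor genes were the 2 that fell, Ifngr1 with a log2 change of -0.37 and Ifngr2 with -0.39. Among the NF-kappaB subunit genes Nfkb2 and Relb rose, with log2 changes of 0.25 and 0.29, while Nfkb1 (0.03) and Rela (-0.06, and 0.0055 with median-of-ratios scaling) did not pass. The Relb call was lost without GAFCP library 1 (adjusted p = 0.101), without GAFCP library 2 (adjusted p = 0.0815) and with the replicate block (adjusted p = 0.0505), and Nfkb1 passed with median-of-ratios scaling (adjusted p = 0.0372).

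The proteases that release the membrane-anchored chemokines changed little. Adam10 was at 107 ± 5.89 TPM in controls and at 112 and 116 TPM with GAFCP (limma adjusted p = 0.23; 0.00915 with median-of-ratios scaling, where its log2 change was 0.15), and Adam17 was at 23.5 ± 1.08 TPM and then at 23.6 and 24.9 TPM (limma adjusted p = 0.59). Dpp4, whose product trims the ends of CXCR3 ligands, was at 0.719 TPM or less in every library. In the list of 12 proteases and surface proteoglycans 11 were tested, of which 4 were higher and 2 lower, beside 19.0% and 28.5% of all tested genes. For 1 of those higher, Mmp8, the filter was reached only through the GAFCP libraries. Mmp2, a gelatinase, rose from 3.79 to 12.5 TPM, and Sdc4, a heparan sulfate proteoglycan, rose from 183 ± 7.38 TPM to 405 and 411 TPM. The proteoglycan genes Sdc2 and Gpc1 fell, with log2 changes of -0.68 and -0.41. Of 11 chromatin repressor genes, which include the PRC2 and DNA methyltransferase genes known to silence CXCR3 ligands in tumor cells, 10 were tested and 2 were higher and 3 lower (19.0% and 28.5% of all tested genes), a share near that of all genes. With no filter 2 were higher and 1 lower. Ezh2, the PRC2 methyltransferase, was at 28.1 ± 0.628 TPM in controls and at 26.4 and 29.7 TPM with GAFCP, on either side of the controls (limma adjusted p = 0.96). The DNA methyltransferase genes went in opposite directions, Dnmt1 with a log2 change of 0.35 and Dnmt3a with -0.31, and the PRC2 gene Eed had 0.26 and the deacetylase gene Hdac3 -0.19. The Dnmt3a call was lost with no filter (adjusted p = 0.0642), with control libraries 3 and 4 alone (adjusted p = 0.146) and when any library but control library 3 was left out (adjusted p from 0.0626 to 0.167). The Hdac3 call was lost without GAFCP library 1 (adjusted p = 0.0962) or 2 (adjusted p = 0.101) and with the replicate block (adjusted p = 0.0565), and the Eed call without GAFCP library 2 (adjusted p = 0.0673).

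The labelled tumor epithelium was present in every library. Its 12 markers summed to between 7252 and 7656 TPM in controls and to 5487 and 5520 TPM with GAFCP, and 1 was higher and 8 lower. The sum was led by the keratin genes Krt8 (log2 change -0.59) and Krt18 (-0.06, which did not pass). Epcam had the largest fall of the list by log2 change (-2.45), from 12.8 to 1.54 TPM. Leukocyte markers were also detected and moved with the chemokines. All 10 pan-leukocyte markers were higher, 1 of them (Cytip) tested only through the GAFCP libraries, their sum going from between 106 and 125 TPM to 314 and 325 TPM, with Ptprc (CD45) from 2.73 to 9.79 TPM. All 20 macrophage and monocyte markers were higher, and their sum went from between 1706 and 1821 TPM to 6596 and 6516 TPM, with Csf1r from 18.1 to 94.7 TPM and Apoe and Lyz2 the most abundant. Of 15 T and NK cell markers with a row 11 were tested and 10 were higher, but 6 of them, Cd3e included, reached the filter only through the GAFCP libraries. Of the other 5, 4 were higher. The sum over the list went from between 9.06 and 11.5 TPM to 49.8 and 46.1 TPM, with Cd3e from 0.366 to 3.39 TPM. Of 10 dendritic cell markers 6 were tested, of which 2 were higher and 2 lower. Their sum went from between 148 and 153 TPM to 126 and 123 TPM, most of it from Fscn1, which fell from 135 to 103 TPM. Itgax was also lower (3.14 to 1.63 TPM), while Batf3 (5.17 to 13.4 TPM) and Ccr7 (1.04 to 1.85 TPM) were higher. Of the same list, Xcr1 and Clec9a were at no more than 0.495 and 0.318 TPM in any library. With most of it from Fscn1, the sum does not stand for the list as a whole. Neutrophil markers (4 higher of 5 tested) went from between 25.7 and 29.9 TPM to 96.3 and 107 TPM. The most abundant, S100a8 (13.2 to 56.6 TPM) and S100a9 (7.70 to 30.9 TPM), were higher. Ly6g was at no more than 0.184 TPM in any library. Fibroblast and pericyte markers (8 higher and 3 lower of 13 tested) went from between 483 and 521 TPM to 564 and 574 TPM. Col6a1, the most abundant, fell from 264 to 197 TPM, while Col1a1 rose from 90.7 to 100 TPM and Col3a1 from 50.4 to 101 TPM. Endothelial markers (1 higher and 2 lower of 4 tested) went from between 17.4 and 19.2 TPM to 13.7 and 14.7 TPM. Beside these marker counts, 19.0% of all tested genes were higher and 28.5% lower. The part of the listed cell types in the chemokine values was not tested.

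Set against the markers in the same library, the chemokines kept their 2 sets, because all 6 were divided by the same sum. The ratios therefore bear only on how each gene changed beside the markers. For every 100 TPM of macrophage and monocyte markers there were 1.98 ± 0.0772 TPM of Cxcl9 in controls (SD, n = 4) and 4.33 ± 0.120 with GAFCP (SD, n = 2). The same ratio went from 2.50 ± 0.137 to 6.47 ± 0.137 for Cxcl10, from 0.165 ± 0.0415 to 0.383 ± 0.00889 for Cxcl11 and from 0.223 ± 0.0581 to 0.566 ± 0.0393 for Ccl5. For Cxcl16 it went from 6.68 ± 0.103 to 3.30 ± 0.0146, and for Cx3cl1 from 2.43 ± 0.113 to 0.875 ± 0.0249. Cxcl9, Cxcl10, Cxcl11 and Ccl5 thus had larger fold changes than the summed macrophage markers, and Cxcl16 and Cx3cl1 had smaller ones. Per 100 TPM of T and NK cell markers the GAFCP mean was 1.77 to 2.09 times the control mean for Cxcl9, Cxcl10, Cxcl11 and Ccl5, and 0.400 and 0.293 times for Cxcl16 and Cx3cl1. Single markers of that list differed widely. Cd4 rose 18.1 times and Cd3e 9.28 times, both from under 1 TPM in every control library. Cxcl9, Cxcl10, Cxcl11 and Ccl5 themselves rose 8.22 to 9.71 times. Lck rose 2.74 times and Gzma did not pass. Per 100 TPM of tumor epithelium markers it was higher for all 6, from 1.82 times for Cx3cl1 to 13.1 times for Cxcl10. These ratios are given as descriptions with no test.

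**Figure D5:**
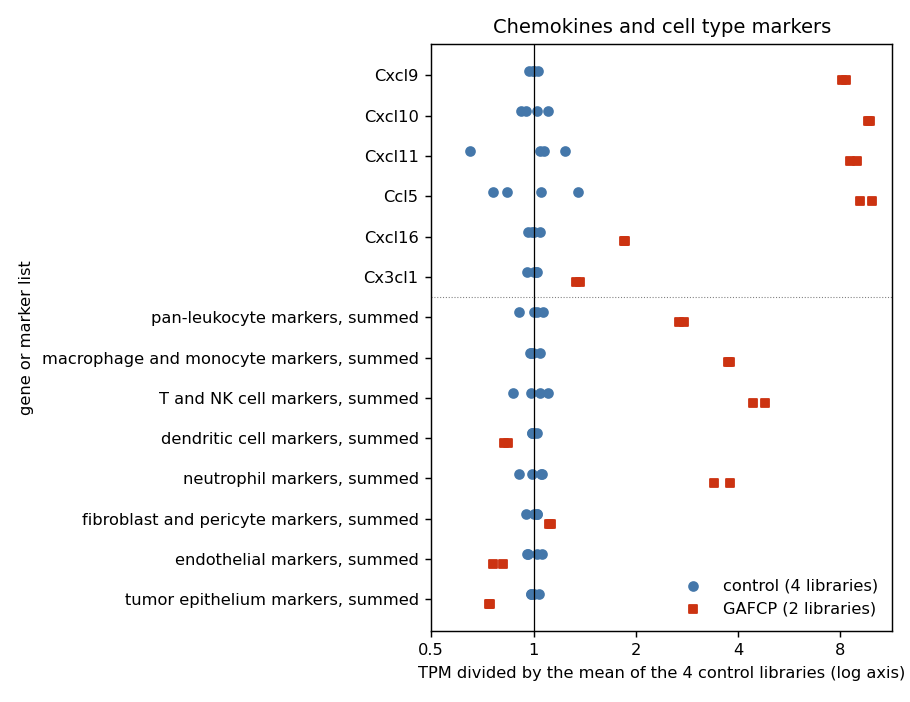
TPM of each chemokine gene, and summed TPM of each cell type marker list, in every library divided by the mean of the 4 control libraries (log axis), with controls as blue circles and GAFCP libraries as red squares. Cxcl9, Cxcl10, Cxcl11 and Ccl5 lie to the right of the sum of every marker list. Cxcl16 and Cx3cl1 lie between the fibroblast and the pan-leukocyte sums, and the tumor epithelium sum lies left of 1. Sums are led by their most abundant genes, and single markers, not drawn, can lie elsewhere. The GAFCP mean was 0.745 times the control mean for Col6a1, 2.01 times for Col3a1 and 18.1 times for Cd4.

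The genes whose values across the 6 libraries were most like each chemokine were found by the root mean square difference of log2(TPM + 1) relative to the control mean, over 12544 tested genes. The nearest to Cxcl9 were C1s1, Igtp and Tgtp2 (differences of 0.042, 0.063 and 0.068), and the nearest to Cxcl10 were Cd74, Gbp6 and Tgtp1 (0.078, 0.084 and 0.095). Cxcl11 was nearest to Cxcl2, Ifi44 and Ccl4 (0.13, 0.15 and 0.16) and Ccl5 to Fxyd2, Zbp1 and Acod1 (0.12, 0.22 and 0.22). Cxcl16 was nearest to Klf2, Casp1 and Smox and Cx3cl1 to Daxx, Btg1 and Elmsan1, with differences between 0.019 and 0.027. The libraries fall into 2 groups, so genes near each other on this measure share above all the size of their change.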

How the data were processed

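Bulk RNA libraries of sorted tumor cells were read from a deposited table of TPM values (24493 genes in 6 libraries). The authors made these values with Salmon on the mm10 build, per the submitters' processing notes. The Salmon version, transcript annotation and use of strand are not given in the sources. Since TPM keeps no depth, library depth is unknown and the spread among libraries sets the precision. Sample titles gave the group and replicate number.

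A gene was tested (13720 in all) where 2 or more libraries held 1 TPM or more. The test was limma 3.58.1 (R 4.3.3) on log2(TPM + 1), moderated with a trend of variance on mean and with 4 degrees of freedom left for the residuals. Benjamini-Hochberg adjustment ran over all tested genes, with calls under 0.05. Log2 changes are GAFCP minus control and understate changes of low genes. The script was tested on simulated data.

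The chemokine genes and all gene lists were chosen with earlier results of these data known. Genes named beside them were, in each list, the 2 called genes with the largest rise and the 2 with the largest fall, some fixed receptors, cytokines, transducers and proteases, the 2 nearest genes on each side in RefSeq order (GRCm38.p6) and the 3 most alike in pattern, given in part. Ackr3, Nfkb1, Nfkb2, Rela, Relb, Ifnb1, Clec9a, Ly6g, Mmp8, Cytip, Ccr7, Itgax, Col3a1, Cd4, Gzma and Epcam were named after their values were seen. The T cell receptor genes Trac and Trbc2 were listed as markers and are not used here, having no row under those symbols. A few genes under this rule are not reported here.

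Alternatives changed the pseudocount, filter, scaling, variance model, library weights and threshold, used the replicate number as a block, left out each library, or used control libraries 1 and 2 or 3 and 4 alone.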

Additional observations from a re-analysis of the deposited data

How the results depend on the processing

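All 6 chemokine genes stayed higher and called under each of the 20 alternatives, with log2 changes of 2.87 to 3.07 for Cxcl9, 3.14 to 3.32 for Cxcl10, 1.94 to 3.12 for Cxcl11, 2.25 to 3.25 for Ccl5, 0.81 to 0.95 for Cxcl16 and 0.40 to 0.49 for Cx3cl1. The largest adjusted p among them was 0.00798, for Cx3cl1 with the replicate block. The count of genes called in the whole table was 6515. It ranged from 4258 to 7226 when each library was left out, the lowest being without GAFCP library 1 (4258) and GAFCP library 2 (4313), where the remaining GAFCP library is assumed to vary as the controls do and fewer samples enter the test. With the replicate number as a block the count was 5894. Only 2 numbers are shared by the groups, and the deviations of same-numbered libraries from their group means correlated at -0.0073 and -0.020. That gives no sign of a pairing. It cannot settle whether one exists, because the deviations of 2 GAFCP libraries from their own mean mirror each other. The block changed no call of the 6, and among the genes named beside them it changed those of Relb, Sdad1, Scarb2 and Hdac3.

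Of the genes beside the chemokines, 3 that did not pass changed sign, and the cause was not tested. Cx3cr1 turned to 0.0659 with control libraries 1 and 2 alone and with the block and to 0.0161 with median-of-ratios scaling, and ranged from -0.0611 to 0.0267 when each library was left out. Ezh2 turned to 0.0197 with control libraries 3 and 4 alone, 0.0576 with median-of-ratios scaling and 0.0296 with quantile normalization, and ranged from -0.0858 to 0.0770 when each library was left out. Rela turned to 0.0055 with median-of-ratios scaling. Without either GAFCP library Ifng, Cxcr3 and Cxcr6 were not tested, as only 1 library then held 1 TPM or more. With 2 GAFCP libraries and unknown depth, differences among genes of a few TPM have the widest error.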
